A study of Mus musculus with 24 samples.

Results

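The mouse Cyp2c genes Cyp2c29, Cyp2c37, Cyp2c38, Cyp2c39, Cyp2c40, Cyp2c44, Cyp2c50, Cyp2c54 and Cyp2c55 were taken by name from the non-control spots of the arrays, with 1 probe per gene, the probe with the highest mean Cy5 signal over 24 arrays. These are 9 of 37074 gene names on the array. Of the 9, 8 passed the filter on dim probes and were among the 18649 genes tested. Livers (right lobe) came from 24 C57BL/6JRcc mice labelled female, 12 of them fed GLU+GAL and 12 fed GLU. Both semi-synthetic diets were given from 3 to 6 weeks of age (postnatal day 42) and supplied 16% of energy as fat, 20% as protein, 32% as starch and 32% as monosaccharide. In GLU+GAL the monosaccharide was glucose and galactose at a ratio of 1 to 1, and in GLU it was glucose alone. All mice were housed singly and killed in the light phase after food had been removed. Each array held the liver RNA of 1 mouse in Cy5 and an equimolar pool of all the mice in Cy3, and a value below is the normalised log2 ratio of mouse over pool unless another scale is named.

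Cytochromes P450 of the Cyp2c subfamily are haem enzymes of the endoplasmic reticulum that take electrons from the reductase Por and insert oxygen into drugs, steroids and polyunsaturated fatty acids. From arachidonic acid, members of the subfamily make epoxides, which the soluble epoxide hydrolase Ephx2 converts to diols, and hydroxy acids. Hepatocytes are a main site of expression, and the nuclear receptors CAR (Nr1i3), PXR (Nr1i2) and Hnf4a are known regulators of several of these genes. Most of the genes lie in tandem on chromosome 19 as duplicates of each other, so their transcripts are alike in sequence. Cyp2c44, an arachidonic acid epoxygenase now named Cyp2c23, lies apart from the main cluster.

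The likeness of the transcripts bears on every value below, so the probes behind the strongest relations are shown first. All are 60 bases long and are given 5′ to 3′ from the deposited annotation, with capitals marking a stretch of 12 or more bases that 2 of the Cyp2c probes share.
Cyp2c37: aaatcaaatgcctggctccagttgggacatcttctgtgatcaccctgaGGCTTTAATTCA
Cyp2c50: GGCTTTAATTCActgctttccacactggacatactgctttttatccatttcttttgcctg
Cyp2c54: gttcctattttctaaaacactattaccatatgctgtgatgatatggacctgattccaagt
Cyp2c29: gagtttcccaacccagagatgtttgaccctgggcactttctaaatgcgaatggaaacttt
Cyp2c40: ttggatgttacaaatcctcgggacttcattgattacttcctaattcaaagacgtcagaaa
Cyp2c67: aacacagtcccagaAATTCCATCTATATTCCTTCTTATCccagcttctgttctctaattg
Cyp2c68: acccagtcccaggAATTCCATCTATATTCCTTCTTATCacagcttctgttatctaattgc
On mm9 coordinates of chromosome 19 the Cyp2c37 probe lay at chr19:40086399-40086458 on the plus strand, the Cyp2c50 probe at chr19:40188154-40188213 on the plus strand and the Cyp2c54 probe at chr19:40112528-40112587 on the minus strand. The Cyp2c29 probe lay at chr19:39403642-39403701 on the plus strand. The Cyp2c40 probe was mapped over a junction, with its ends at chr19:39861388-39877026 on the minus strand. The Cyp2c67 probe lay at chr19:39683429-39683488 and the Cyp2c68 probe at chr19:39763420-39763479, both on the minus strand. The probes of Cyp2c37 and Cyp2c50 shared 12 bases, the end of the first being the start of the second, and those of Cyp2c67 and Cyp2c68 shared 25 bases. The array's own annotation listed transcripts of Cyp2c50 beside Cyp2c37 for the Cyp2c37 probe, and of Cyp2c68 beside Cyp2c40 for the Cyp2c40 probe. The values of these 2 probes are therefore uncertain as to the gene. The probes of Cyp2c29, Cyp2c38, Cyp2c39, Cyp2c44, Cyp2c50, Cyp2c54 and Cyp2c55 were annotated to 1 gene each.

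The Cy5 signal of Cyp2c39, known for oxidising retinoic acid, was not well above background on any of the 24 arrays, with a mean scanned signal of 54.0, and no value is given for it. Cyp2c55, which is known as an inducible member in liver and intestine, was dim with a mean scanned Cy5 signal of 128.2, yet it was well above background in all 12 GLU+GAL and all 12 GLU mice. Its pool signal in Cy3 was well above background on 20 of the 24 arrays, so some of its ratios have a pool signal near background. The other 7 members had mean scanned Cy5 signals between 15273 and 88060, were well above background in every mouse, and none of their spots was saturated. The Cyp2c29 spot on the array of GLU+GAL mouse 11 was marked as an outlier by the scanner software and was left out, so the Cyp2c29 values rest on 11 GLU+GAL and 12 GLU mice.

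Across all genes, Cy5 signals were well above background at 46.6% to 51.3% of probes per array. All 6 hepatocyte marker genes were measured, against 1 of 4 kidney, 2 of 4 skeletal muscle, 2 of 4 intestine and 1 of 4 pancreas markers. The arrays sat on 3 slides with 4 mice of each diet on each slide. The array of GLU+GAL mouse 4 stood apart in its pool channel, and GLU+GAL mouse 12 had the Y-linked genes Eif2s3y and Ddx3y above background and Xist not, against its label. The diet differences of the Cyp2c genes, the correlations between named genes and the within-diet SDs were recomputed without both. The gene lists and markers, the comparison by brightness, the nearest genes and the spread of mice over pool were not, and rest on all arrays. Bulk liver cannot tell fewer cells of a type from less RNA per cell. The labels give each mouse its own array, so n counts animals.

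No member passed Benjamini-Hochberg adjustment over all genes for the diet difference (limma, lowest member adjusted p = 0.985), nor did any of the 18649 genes (0%), the lowest adjusted p being 0.523. Of the 8 members tested, 7 had a lower mean in GLU+GAL than in GLU livers. Their median difference was -0.11 on the log2 scale, against 0.0013 over all genes tested. At an unadjusted p under 0.05, 3 members were lower in GLU+GAL livers (Cyp2c29, Cyp2c38 and Cyp2c40) and 0 were higher, where 2.66% of all genes tested were lower and 1.65% higher, 4.31% in all. The 3 members are not independent counts, since their values correlated across mice, as given below. No member differed between slides after adjustment (0 of 8, against 0% of all genes tested). Before adjustment the slide p was 0.0122 for Cyp2c40, 0.0180 for Cyp2c44 and 0.0445 for Cyp2c29 (limma F-test). It was over 0.05 for the other members tested, and the share of all genes under 0.05 for slide was not taken.

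**Figure D1:**
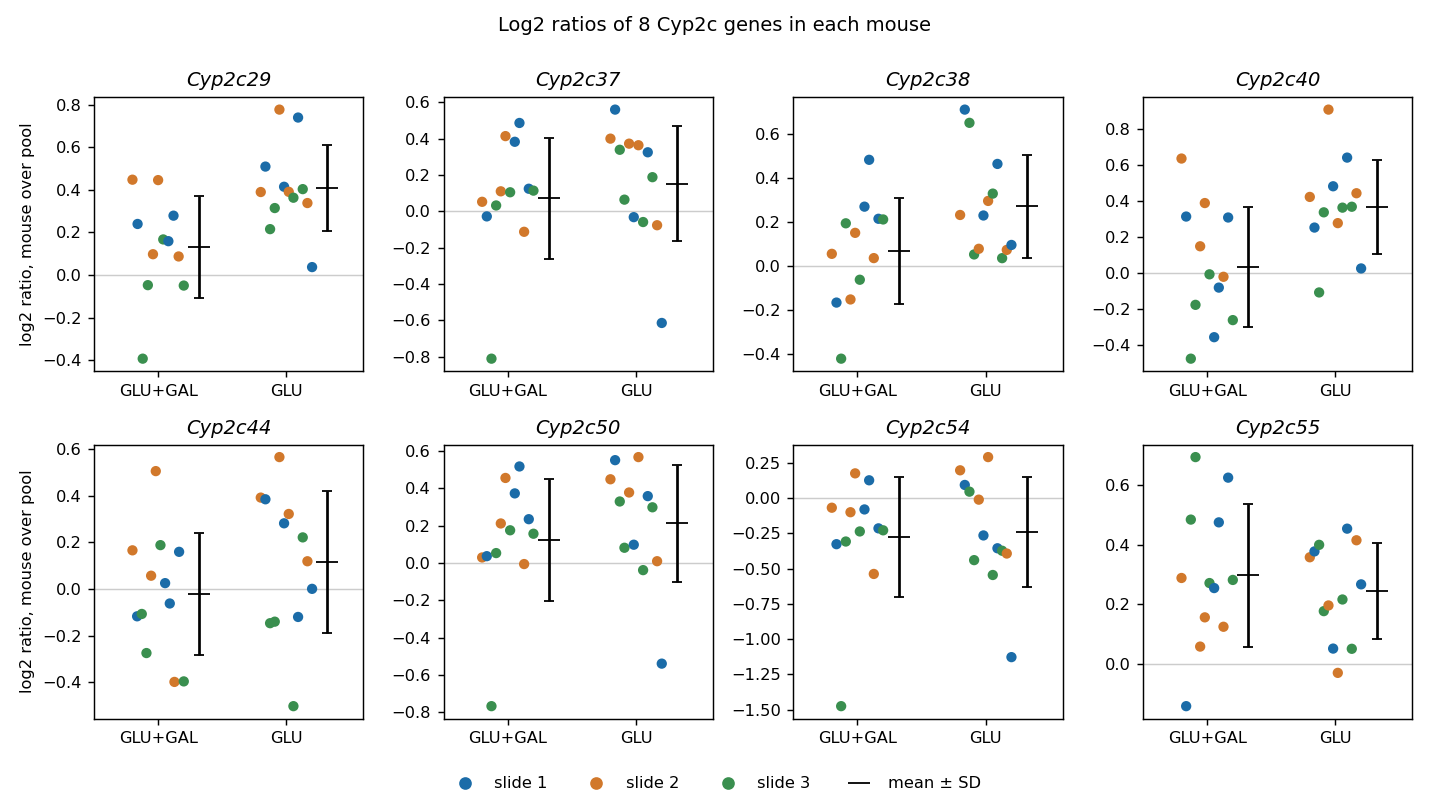
Log2 ratio of mouse over pool (y axis) for each of 8 Cyp2c genes in GLU+GAL mice and GLU mice (x axis), with 1 point per mouse, coloured by slide, and the mean ± SD of each diet in black. The diets overlapped for every gene, and GLU+GAL mouse 3 was the lowest point for Cyp2c29, Cyp2c37, Cyp2c38, Cyp2c40, Cyp2c50 and Cyp2c54.

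Cyp2c40, known for hydroxylating arachidonic acid, had log2 ratios with a lowest value of -0.48, a median of -0.014 and a highest of 0.64 in GLU+GAL livers, against 0.37 as the median and -0.11 to 0.91 as the range in GLU livers. The diets overlapped, and 10 of the 12 mice on GLU+GAL were under the mean of GLU. The means were 0.034 ± 0.33 in GLU+GAL and 0.37 ± 0.26 in GLU livers (SD, n = 12 each). The difference of -0.33 ± 0.11 (SE) corresponded to 0.793-fold with a 95% interval from 0.674 to 0.934, at an unadjusted p of 0.00705 and an adjusted p of 0.999 (limma). Within slides 1, 2 and 3 it was -0.30, -0.23 and -0.47. The difference kept its sign under every scaling tried, from -0.33 after loess to -0.27 in the authors' value table.

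Cyp2c29, an arachidonic acid epoxygenase and a classical gene induced by phenobarbital through CAR, had log2 ratios with a lowest value of -0.39, a median of 0.16 and a highest of 0.45 in GLU+GAL livers, against a lowest of 0.037, a median of 0.39 and a highest of 0.78 in GLU livers. On GLU+GAL, 9 of 11 mice were under the mean of GLU, and GLU+GAL mice 3, 4 and 12 lay below every GLU mouse. The means were 0.13 ± 0.24 in GLU+GAL livers (SD, n = 11) and 0.41 ± 0.20 in GLU livers (SD, n = 12). The difference of -0.28 ± 0.088 (SE) corresponded to 0.825-fold with a 95% interval from 0.728 to 0.935, at an unadjusted p of 0.00407 and an adjusted p of 0.985 (limma). Within slides 1, 2 and 3 it was -0.20, -0.20 and -0.40. Without GLU+GAL mice 4 and 12, the 2 arrays set apart above, it was -0.24 at an unadjusted p of 0.0172 (limma). The difference was -0.20 with the Agilent processed signals (unadjusted p = 0.0367), and with median centring (-0.19, p = 0.133) and in the authors' value table (-0.16, p = 0.0640) it was no longer past an unadjusted p under 0.05.

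Cyp2c38, which also epoxidises arachidonic acid, had log2 ratios with a lowest value of -0.42, a median of 0.10 and a highest of 0.48 in GLU+GAL livers, against a lowest of 0.037, a median of 0.23 and a highest of 0.71 in GLU livers. On GLU+GAL, 11 of 12 mice were under the mean of GLU, although the ranges overlapped. The difference was -0.20 ± 0.092 (SE), or 0.869-fold with a 95% interval from 0.762 to 0.990, at an unadjusted p of 0.0356 and an adjusted p of 0.999 (limma). Within slides 1, 2 and 3 it was -0.18, -0.15 and -0.29. The unadjusted p was 0.0946 with the Agilent processed signals, 0.252 with median centring, 0.0810 with Cy5 alone, 0.190 in the authors' value table and 0.0565 with array weights, so the call held under none of these. Without GLU+GAL mouse 3 and GLU mouse 12, a setting chosen after the data were seen, the difference was -0.17 at an unadjusted p of 0.0585.

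Cyp2c44, the epoxygenase outside the main cluster, had log2 ratios with a lowest value of -0.40, a median of -0.018 and a highest of 0.51 in GLU+GAL livers, against a lowest of -0.50, a median of 0.17 and a highest of 0.57 in GLU livers. The ranges were nearly the same, and the difference of -0.14 ± 0.11 (SE) had a 95% interval from -0.36 to 0.087 and an unadjusted p of 0.222. A second, dimmer Cyp2c44 probe followed the first across mice with a Pearson r of 0.912 and gave a difference of -0.20 at an unadjusted p of 0.0318 and an adjusted p of 0.999 (limma over all probes). Without GLU+GAL mice 4 and 12 the difference of the first probe was -0.073.

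Cyp2c37, Cyp2c50 and Cyp2c54 encode enzymes known to form epoxides or hydroxy acids from arachidonic acid. Cyp2c37 had a lowest log2 ratio of -0.81, a median of 0.11 and a highest of 0.49 in GLU+GAL livers, against a lowest of -0.61, a median of 0.26 and a highest of 0.56 in GLU livers. Cyp2c50 had a lowest of -0.77, a median of 0.17 and a highest of 0.52 in GLU+GAL livers, against a lowest of -0.54, a median of 0.31 and a highest of 0.57 in GLU livers. Cyp2c54 had a lowest of -1.47, a median of -0.22 and a highest of 0.17 in GLU+GAL livers, against a lowest of -1.13, a median of -0.31 and a highest of 0.29 in GLU livers. In each of the 3 genes the diets overlapped over most of their range, and the lowest mouse of each diet was the same animal, GLU+GAL mouse 3 and GLU mouse 12. The differences were -0.080 ± 0.12 (SE) for Cyp2c37, -0.089 ± 0.12 for Cyp2c50 and -0.033 ± 0.15 for Cyp2c54. The direction for Cyp2c54 turned positive with the Agilent processed signals, median centring, Cy5 alone and the authors' value table, and that for Cyp2c37 and Cyp2c50 turned positive in the authors' value table. On slide 1 all 3 differences were positive, at 0.18, 0.17 and 0.29, and on slides 2 and 3 all were negative, from -0.27 to -0.15. The 95% intervals were -0.33 to 0.17 for Cyp2c37, -0.34 to 0.16 for Cyp2c50 and -0.35 to 0.28 for Cyp2c54, so differences of that size in either direction remain possible.

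A second Cyp2c50 probe, annotated to another transcript variant, gave a difference of 0.22 at an unadjusted p of 0.119. It correlated with the first probe at a Pearson r of 0.532 over the 24 mice. Their diet differences were nevertheless opposite in sign, that of the first probe being -0.089. Cyp2c55 had a lowest log2 ratio of -0.14, a median of 0.28 and a highest of 0.69 in GLU+GAL livers, against a lowest of -0.031, a median of 0.24 and a highest of 0.45 in GLU livers. It was the single member with a higher mean in GLU+GAL livers, by 0.053 ± 0.081 (SE), with a 95% interval from -0.11 to 0.22. Without GLU+GAL mouse 4, which had the highest value and whose pool channel stood apart, the difference was 0.017. The second Cyp2c55 probe gave 0.046, and within slide 2 the first gave -0.078.

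**Figure D2:**
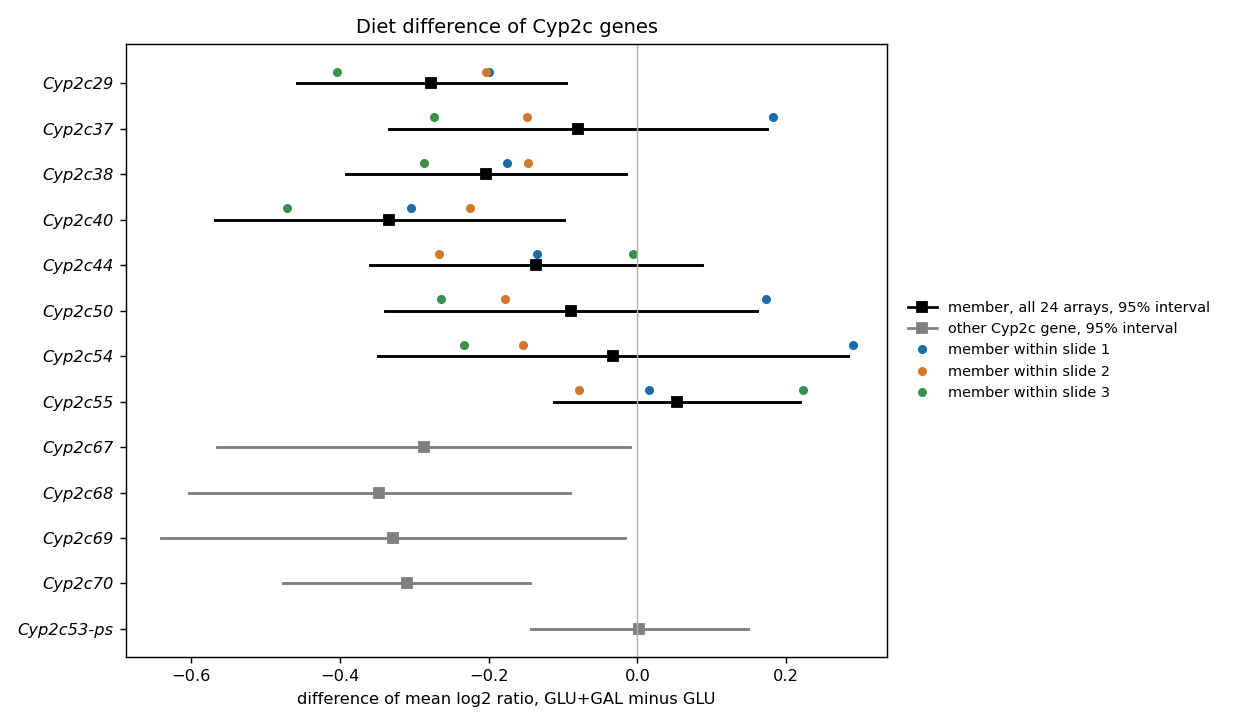
Difference of mean log2 ratio, GLU+GAL minus GLU (x axis), for 8 Cyp2c members (black squares) and 5 other measured Cyp2c genes (grey squares, y axis), with 95% intervals from limma over all 24 arrays, and the members' differences within each slide as coloured points. The intervals of Cyp2c29, Cyp2c38 and Cyp2c40 lay below 0 before adjustment, and the slide 1 points of Cyp2c37, Cyp2c50 and Cyp2c54 lay above 0.

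Signal strength moved with the diet difference and was measured beside it. Among 1728 other genes with a mean Cy5 signal of at least 10000, a comparison added after the data were seen, 67.2% had a lower mean in GLU+GAL livers and 7.58% were lower at an unadjusted p under 0.05. Those shares were 38.9% and 0.694% with the Agilent processed signals, 32% and 0.347% with median centring, and 22.9% and 0.405% in the authors' value table. The median difference was -0.14 for the 7 members of that brightness and -0.033 for the other bright genes. With the Agilent processed signals the medians were -0.10 for the 7 members and 0.019 for the other bright genes, and in the authors' value table they were -0.053 and 0.048. The members' median thus lay below that of genes of like brightness under each of these scalings, by about the same amount, while the place of 0 moved. The part that brightness plays in the members' differences was not tested.

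**Figure D3:**
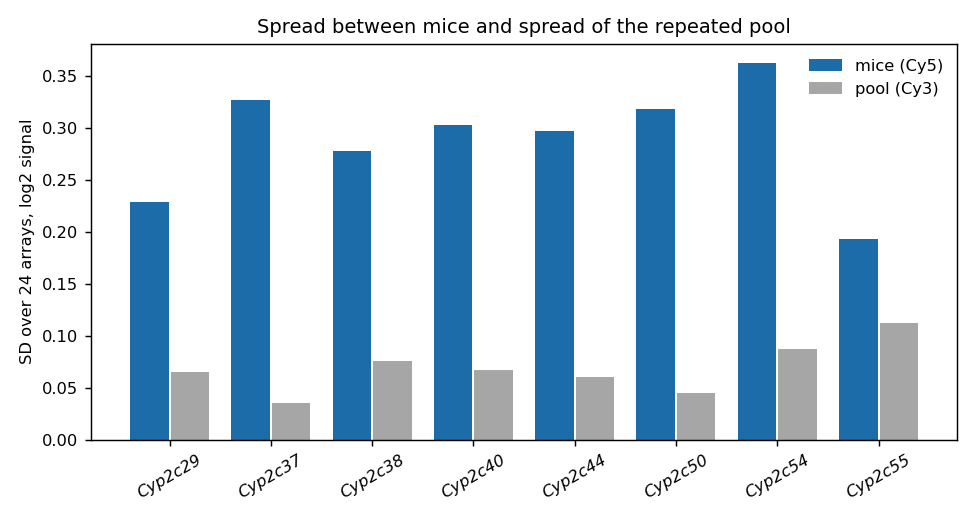
SD of log2 signal over 24 arrays (y axis, each channel quantile normalised on its own) for 8 Cyp2c genes (x axis), with the mice in Cy5 in blue and the repeatedly hybridised pool in Cy3 in grey. The bars of the mice were higher for every gene, the closest being Cyp2c55 at 0.19 for the mice and 0.11 for the pool.

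The members varied more between mice of a diet than most genes did. Their pooled within-diet SDs of the log2 ratio were 0.22 for Cyp2c29, 0.33 for Cyp2c37, 0.24 for Cyp2c38, 0.30 for Cyp2c40, 0.28 for Cyp2c44, 0.32 for Cyp2c50, 0.41 for Cyp2c54 and 0.20 for Cyp2c55. The median over all genes tested was 0.17, over the other bright genes it was 0.15, and the 8 members lay between the 70.4 and 97.4 percentiles of all genes. The pool in Cy3 was the same RNA on every array, so its spread measures the arrays alone. For Cyp2c37 the SD of log2 signal was 0.33 in the Cy5 channel of the mice and 0.035 in the pool, a ratio of 9.26. The ratio of mice over pool was 7.11 for Cyp2c50, 4.92 for Cyp2c44, 4.53 for Cyp2c40, 4.18 for Cyp2c54, 3.65 for Cyp2c38, 3.49 for Cyp2c29 and 1.73 for Cyp2c55, against a median of 1.84 over all genes. Between the lowest and the highest of the 24 mice the linear ratio spanned 3.40-fold for Cyp2c54, 2.62-fold for Cyp2c40, 2.59-fold for Cyp2c37 and 1.79-fold for Cyp2c55.

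Single mice accounted for much of the spread of Cyp2c37, Cyp2c50 and Cyp2c54. GLU+GAL mouse 3 had -0.81, -0.77 and -1.47 for these genes, and GLU mouse 12 had -0.61, -0.54 and -1.13. Without these mice, a choice made after the data were seen, the within-diet SDs were 0.20 for Cyp2c37, 0.20 for Cyp2c50 and 0.25 for Cyp2c54. GLU+GAL mouse 3 was among the 3 lowest mice for 6 of 8 members but among the 3 highest for Cyp2c55, at 0.48. GLU mouse 12 was not low throughout, with 0.097 for Cyp2c38, 0.00073 for Cyp2c44 and 0.27 for Cyp2c55. At the other end, GLU mouse 2 was among the 3 highest for 4 members, and GLU mouse 5 was the highest for Cyp2c29, Cyp2c40 and Cyp2c44.

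The members fell into unequal relations with each other across mice. Of 28 pairs, 22 had a positive Pearson r, the median r was 0.449, and 13 passed adjustment over the 28 pairs by Pearson and 13 by Spearman (permutation tests). These ratios share the array, the pool and the loess fit of each mouse. From Cy5 alone, without the pool, 11 pairs passed, and 10 passed after the diet and slide means had been removed. Within slides of 8 mice, 3, 5 and 4 pairs passed.

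**Figure D4:**
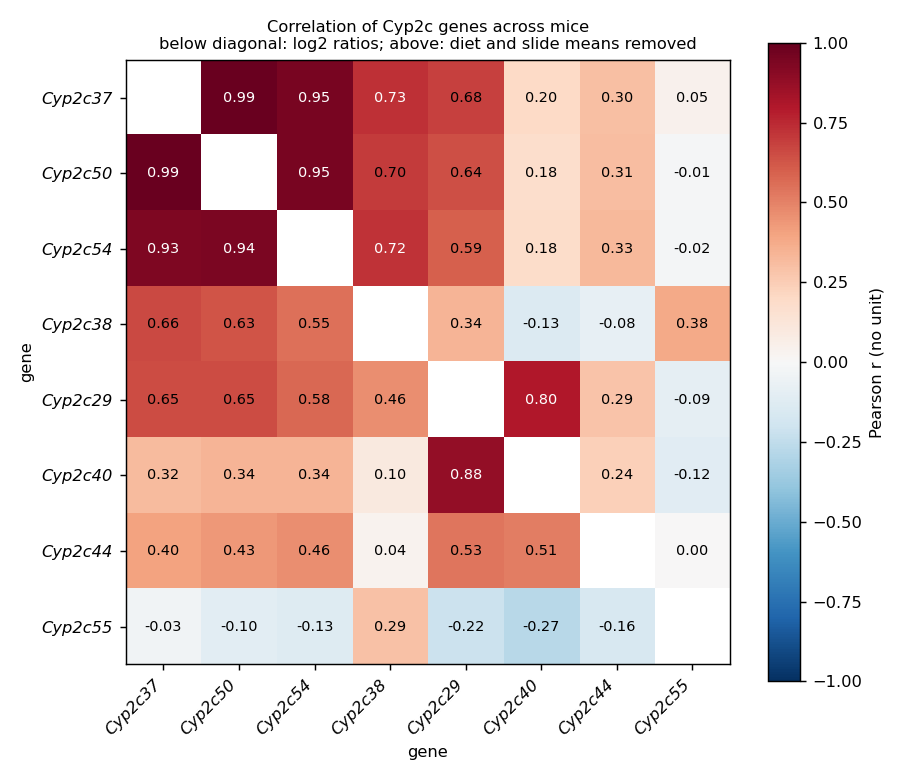
Pearson r between the log2 ratios of 8 Cyp2c genes (both axes) over up to 24 mice, below the diagonal as measured and above it after removal of diet and slide means. Cyp2c37, Cyp2c50 and Cyp2c54 form a dark block from 0.93 to 0.99, Cyp2c29 and Cyp2c40 reach 0.88 as measured, and the Cyp2c55 row is pale with values from -0.27 to 0.29.

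Cyp2c37 and Cyp2c50 followed each other most closely, with a Pearson r of 0.986 and a Spearman rho of 0.963 over 24 mice (adjusted permutation p = 7e-05 for each, the smallest raw p that the resamples allow being 1e-05). Cyp2c54 followed both, with r = 0.932 and rho = 0.848 against Cyp2c37, and r = 0.941 and rho = 0.855 against Cyp2c50, at the same adjusted permutation p. Without GLU+GAL mouse 3 and GLU mouse 12, the farthest mice, r was 0.961 for Cyp2c37 with Cyp2c50, 0.809 for Cyp2c37 with Cyp2c54 and 0.829 for Cyp2c50 with Cyp2c54, so the relations did not rest on these mice. Within each slide the 3 pairs had r from 0.904 to 0.994. Cross-hybridisation among Cyp2c37, Cyp2c50 and Cyp2c54, whose probes are listed above, was not tested. The Cyp2c54 probe was annotated to its own gene alone and shared no stretch of 12 bases with the other Cyp2c probes compared. Probes were compared with each other and not with the transcripts of other genes, so this cannot decide the question. The Cyp2c40 probe shared at most 7 bases with another probe and was still annotated to 2 genes.

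Cyp2c29 and Cyp2c40 formed a second close pair, with r = 0.880 and rho = 0.853 over 23 mice (adjusted permutation p = 7e-05 for each). Without GLU+GAL mouse 3 and GLU mouse 5, the farthest mice, r was 0.814, and within slides 1, 2 and 3 it was 0.755, 0.935 and 0.935. Their 2 probes are annotated to different genes. Cyp2c40 did not pass with Cyp2c37, Cyp2c50 or Cyp2c54, with r of 0.320, 0.336 and 0.339. Cyp2c29 passed with both sets by Pearson, with r of 0.653, 0.651 and 0.576 against Cyp2c37, Cyp2c50 and Cyp2c54 (adjusted permutation p = 0.0035, 0.00376 and 0.0148). These r values were 0.445, 0.449 and 0.311 without the farthest mice, so those relations rest in part on these mice.

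Cyp2c38 passed with Cyp2c37, Cyp2c50 and Cyp2c54 at r of 0.663, 0.628 and 0.550 and rho of 0.567, 0.557 and 0.480 (adjusted permutation p = 0.00241, 0.00483 and 0.0161 by Pearson), and did not with Cyp2c40 (r = 0.10) or Cyp2c44 (r = 0.036). Leaving out GLU+GAL mouse 3 and GLU mouse 2, its farthest mice, gave r of 0.386 with Cyp2c50 and 0.285 with Cyp2c54, whereas r with Cyp2c37 was 0.606 without GLU+GAL mouse 3 and GLU mouse 12, the farthest mice for Cyp2c37. Cyp2c44 passed by Pearson with Cyp2c29, Cyp2c40 and Cyp2c54, at r of 0.533, 0.514 and 0.463 (adjusted permutation p = 0.0212, 0.0246 and 0.0452), and after removal of diet and slide means these were 0.289, 0.236 and 0.325. By Spearman it passed with these genes and also with Cyp2c37 and Cyp2c50, at rho of 0.497 and 0.568 (adjusted permutation p = 0.0396 and 0.0156). Slide 2 gave the highest r with each of these genes. With Cyp2c29, r was 0.175, 0.821 and 0.163 within slides 1, 2 and 3. Cyp2c55 passed with no other member. It is the dimmest of the 8, and its spread in mice was the least above that of the pool.

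**Figure D5:**
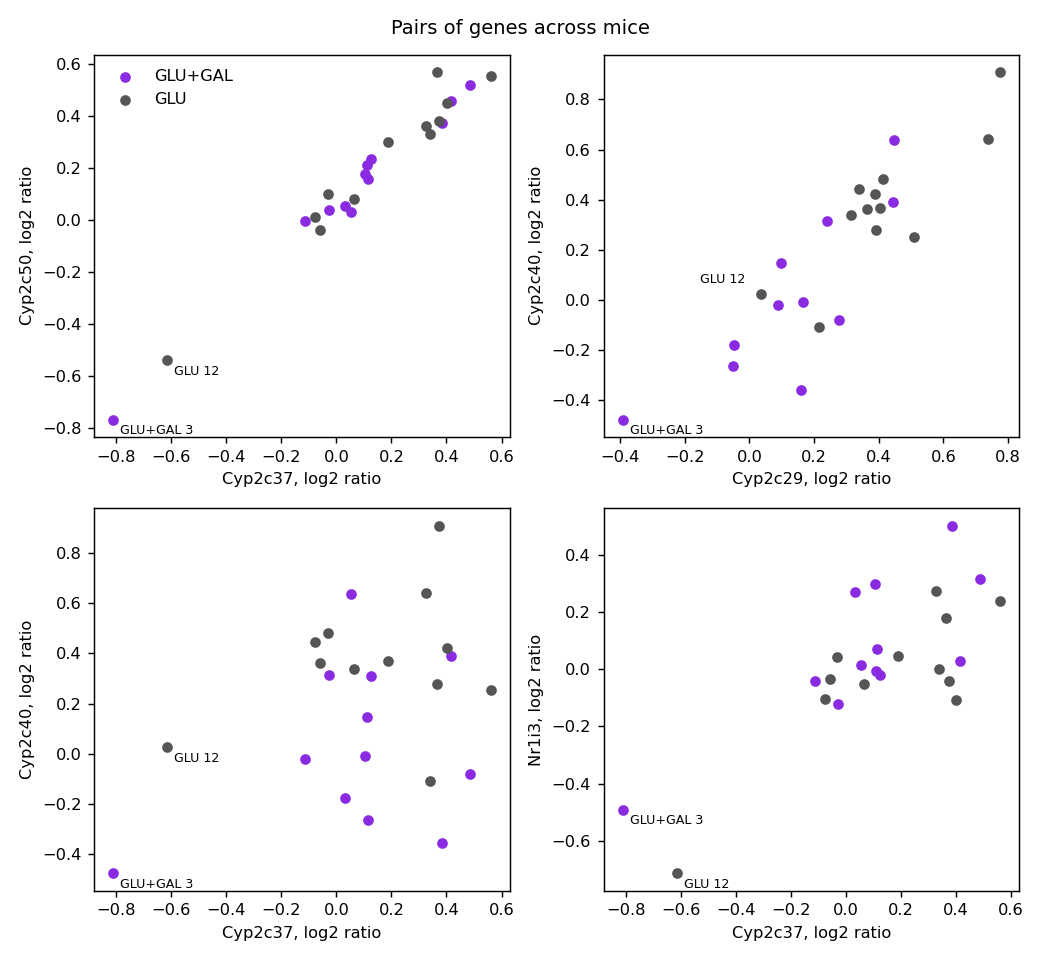
Log2 ratios of 4 gene pairs, with 1 point per mouse, GLU+GAL in violet and GLU in grey. Cyp2c37 and Cyp2c50 lie along a line that GLU+GAL mouse 3 and GLU mouse 12 extend, Cyp2c29 and Cyp2c40 rise together, Cyp2c37 and Cyp2c40 show a wide scatter (r = 0.320), and Nr1i3 is lowest in the same 2 mice in which Cyp2c37 is lowest.

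Because Cyp2c37 and Cyp2c50 moved together, the sequence before their start sites is shown, from the RefSeq promoter windows of GRCm38.p6. The windows run from 250 bases before to 50 bases after the start, and 170 bases of each are printed, ending at the base before the start. Capitals mark the motifs found. Cyp2c37 is at chr19:39992254-39992423 and Cyp2c50 at chr19:40089509-40089678, both on the plus strand.
Cyp2c37: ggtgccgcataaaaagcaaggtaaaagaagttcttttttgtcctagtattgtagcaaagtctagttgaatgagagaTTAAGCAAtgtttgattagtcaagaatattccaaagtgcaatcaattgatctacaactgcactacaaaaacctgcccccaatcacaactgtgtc
Cyp2c50: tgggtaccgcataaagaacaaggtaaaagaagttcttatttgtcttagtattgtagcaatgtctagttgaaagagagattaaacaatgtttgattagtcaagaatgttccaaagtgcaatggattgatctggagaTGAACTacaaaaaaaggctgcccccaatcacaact
Over 298 bases of the full windows, without gaps and at the best offset, the 2 promoters were 71.1% identical. The same measure gave 57.8% and 56.9% for Cyp2c29 with the 2 windows of Cyp2c39, 50.7% for Cyp2c29 with Cyp2c38, 36.3% for Cyp2c29 with Cyp2c40, and 32.9% for the lowest pair, Cyp2c40 with a window of Cyp2c39. Windows were given for 7 members, of which Cyp2c39 had 2, making 8 windows. Motifs were searched on both strands. The C/EBP-type motif TTGCNNAA, held by 10.8% of 32851 promoters of this length, was in the windows of Cyp2c37 (capitals above, on the minus strand) and Cyp2c40. The nuclear receptor half-site AGGTCA, held by 16.3% of promoters, was in those of Cyp2c29 and 1 of Cyp2c39. Its variant AGTTCA, held by 14% of promoters, was in those of Cyp2c50 (capitals above, on the minus strand), Cyp2c40 and Cyp2c39. The Hnf4-type motif CAAAGTCCA, held by 0.475% of promoters, was in that of Cyp2c40, and the forkhead motif TGTTTAC, held by 3.65%, was in those of Cyp2c38 and both of Cyp2c39. The STAT motif TTCNNNGAA (8.3% of promoters) and the Hnf1 palindrome (0.00913%) were in none of the 8 windows. These matches describe letters, not sites in use.

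Among 7 genes of regulation and linked metabolism set against the 8 members, 56 relations were computed, of which 17 passed adjustment by Pearson and 7 by Spearman (permutation tests). Nr1i3, which encodes the receptor CAR, had r = 0.766 and rho = 0.553 with Cyp2c37 (adjusted permutation p = 0.00532 and 0.0469), r = 0.753 and rho = 0.568 with Cyp2c50, and r = 0.678 and rho = 0.437 with Cyp2c54, the last passing by Pearson and not by Spearman. GLU+GAL mouse 3 and GLU mouse 12 were low in Nr1i3 too, at -0.49 and -0.71. Without them r was 0.456, 0.420 and 0.225, so the relation with Cyp2c54 rests on these 2 mice and the other relations rest on them in part. Within slides 1, 2 and 3, r of Nr1i3 with Cyp2c37 was 0.933, 0.329 and 0.771. Nr1i3 did not pass with Cyp2c29 as measured (r = 0.334), where r was 0.632 after removal of diet and slide means and, within diets, 0.422 in GLU+GAL and 0.675 in GLU mice. Its own diet difference was 0.091 ± 0.098 (SE) at an unadjusted p of 0.360.

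Hnf4a, a hepatocyte nuclear receptor, had r = 0.636 and rho = 0.578 with Cyp2c29 (adjusted permutation p = 0.0104 and 0.0469), r = 0.622 with Cyp2c54, 0.592 with Cyp2c50, 0.572 with Cyp2c37, 0.520 with Cyp2c40 and 0.496 with Cyp2c44, of which the relation with Cyp2c54 alone also passed by Spearman. Without the farthest mice its r with Cyp2c29 was 0.402. After removal of diet and slide means its r was 0.389 with Cyp2c29, 0.606 with Cyp2c54, 0.546 with Cyp2c50, 0.547 with Cyp2c37, 0.161 with Cyp2c40 and 0.267 with Cyp2c44. Ephx2, which hydrolyses the epoxides these enzymes make, had r = 0.639 and rho = 0.568 with Cyp2c54 (adjusted permutation p = 0.0112 and 0.0469), and 0.509 without the farthest mice. With Cyp2c50 it had r = 0.608 and rho = 0.601 (adjusted permutation p = 0.0165 and 0.0469), and 0.450 without the farthest mice. With Cyp2c37 it passed by Pearson alone, at r = 0.5925 and 0.421 without those mice. Cyp3a11, a CAR and PXR target, passed by Pearson alone with Cyp2c37, Cyp2c50 and Cyp2c54, at r of 0.634, 0.570 and 0.582. Without GLU+GAL mouse 3 and GLU mouse 12 these were 0.207, 0.051 and 0.075. Cyp2b10, the standard readout of CAR activation, followed Cyp2c38 with r = 0.618 and rho = 0.674 (adjusted permutation p = 0.0104 and 0.0224), which was 0.605 without the farthest mice but -0.13 within slide 2. It passed by Pearson with Cyp2c55 at r = 0.497 and did not with Cyp2c29 at r = 0.115. Por, the electron donor of these enzymes, and Nr1i2, which encodes PXR, passed with no member.

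For each member the 3 genes outside the 9 members with the highest r over mice, after removal of diet and slide means, are named as a description. For Cyp2c37 they were Ugt1a6b, a glucuronosyltransferase, with r = 0.899, Cyp2a12 with 0.891 and the paraoxonase Pon1 with 0.850. Ugt1a6b also came first for Cyp2c50 at 0.891 and for Cyp2c54 at 0.875. Next came Cyp2a12 at 0.861 and Nr1i3 at 0.852 for Cyp2c50, and Pon1 at 0.846 and the transporter Abcg2 at 0.845 for Cyp2c54. For Cyp2c40 all 3 were other Cyp2c genes, Cyp2c67 at 0.908, Cyp2c68 at 0.862 and Cyp2c69 at 0.851. For Cyp2c29 they were the tubulin Tubb4b at 0.872, Wdr82 at 0.808 and Cyp2c68 at 0.797. For Cyp2c38 they were the retinol dehydrogenase Rdh16 at 0.858, Yaf2 at 0.824 and the carboxylesterase Ces1d at 0.790. For Cyp2c44 they were Gna13 at 0.795, Gtf2ird1 at 0.785 and Dmwd at 0.776. For Cyp2c55 they were the histone methyltransferase Suv39h1 at 0.809, the drug efflux transporter Abcb1a at 0.785 and a non-coding transcript without a gene symbol.

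The other measured Cyp2c genes were also lower on average in GLU+GAL livers, except the pseudogene Cyp2c53-ps. Of the 5 tested, 4 were lower at an unadjusted p under 0.05 and none passed adjustment (limma). At that p, 2.66% of all genes tested were lower, and 7.58% of the 1728 genes outside the members with a Cy5 signal of at least 10000. Cyp2c70, known as the mouse enzyme that makes muricholic acids from bile acids, averaged -0.36 ± 0.18 in GLU+GAL and -0.048 ± 0.23 in GLU livers (SD, n = 12 each). Its difference of -0.31 ± 0.081 (SE) had an unadjusted p of 0.000677 and an adjusted p of 0.744. Cyp2c68 differed by -0.35, Cyp2c69 by -0.33 and Cyp2c67 by -0.29, at unadjusted p of 0.00989, 0.0399 and 0.0431. These 4 genes had negative differences under all 17 other settings, from -0.68 to -0.10, but the unadjusted p was under 0.05 in 9 of the 17 for Cyp2c67, 12 for Cyp2c68, 10 for Cyp2c69 and 15 for Cyp2c70. Without GLU+GAL mice 4 and 12 the difference was -0.19 for Cyp2c67 and -0.21 for Cyp2c69, at unadjusted p of 0.155 and 0.159 (limma). The annotation lists Cyp2c40 among the transcripts of the Cyp2c68 and Cyp2c69 probes, so these do not count as independent of Cyp2c40. It also lists Cyp2c69 for the Cyp2c68 probe, and Cyp2c67 and Cyp2c68 for the Cyp2c69 probe. The counts of Cyp2c67, Cyp2c68 and Cyp2c69 are therefore not independent of each other.

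The partners of these enzymes did not pass adjustment in either direction. For the counts that follow, 2.66% of all genes tested were lower and 1.65% higher at an unadjusted p under 0.05. Of 12 genes of electron supply and haem synthesis, 0 were lower and 0 higher at an unadjusted p under 0.05. Por differed by -0.13 ± 0.14 (SE), and the haem oxygenase Hmox1, with the smallest p of the list at 0.0509, by -0.20. Of 15 receptors and transcription factors 1 was lower, Hnf4a, which averaged -0.21 ± 0.13 in GLU+GAL and -0.055 ± 0.18 in GLU livers (SD, n = 12 each) at an unadjusted p of 0.0227 and an adjusted p of 0.999 (limma). Of 18 measured CAR and PXR target genes 0 passed in either direction, the list's median difference being 0.023, and Cyp2b10 differed by 0.015 ± 0.10 (SE). Of 20 measured enzymes of eicosanoid metabolism 0 passed in either direction, with 16 means lower and a list median of -0.074. Ephx2 differed by -0.078 ± 0.12 (SE) and the epoxygenase Cyp2j5, with the smallest p of that list at 0.0643, by -0.095. Of 12 retinoid genes 1 was lower at an unadjusted p under 0.05, the retinoic acid receptor Rarb, by -0.20 at p = 0.0323.

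Markers of place, sex and cell type were set beside these differences. At an unadjusted p under 0.05, 2.66% of all genes tested were lower in GLU+GAL livers and 1.65% higher. Of the bright genes described above, 7.58% were lower in this fit, and 0.694% with the Agilent processed signals. The lists were read from the loess ratios alone, so how their counts move with the scaling was not tested. Of 12 pericentral and 12 periportal genes 0 were past an unadjusted p under 0.05 in either direction, with list medians of -0.0053 and 0.013. Of 14 female-predominant genes 0 were past it, and of 12 male-predominant genes 3 were lower, with a list median of -0.17. Of 6 hepatocyte markers 3 were lower (Alb, Apoa1 and Serpina1c), and the mean of the list per mouse ran from 0.18 to 0.65 in GLU+GAL and from 0.23 to 0.81 in GLU livers. Of 7 Kupffer cell markers, all measured, 5 were lower, and their mean per mouse ran from -0.58 to 0.34 in GLU+GAL and from -0.15 to 0.77 in GLU livers. Of 19 acute phase genes measured 11 were lower, with per-mouse means from -0.19 to 0.11 in GLU+GAL and from 0.027 to 0.33 in GLU livers. Of 3 cholangiocyte, 5 endothelial and 5 stellate cell markers measured, 0 were past it. Their part in the members' differences was not tested.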

How the data were processed

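Per the labels' protocols, 200 ng of liver RNA per mouse was labelled, Cy5 for the mouse and Cy3 for the pool, without dye swaps. The deposited scanner files hold spot intensity values that Agilent Feature Extraction (10.7.3.1) produced, per the file headers and the submitters' processing notes. The table of log2 values deposited by the authors (29287 spots, every column with a median of 8.6) agreed best with the Cy5 signals of the same mouse in all 24 columns. The genes of that table were not centred, whereas each gene's mean was removed for this match. The sources used here do not state the scaling of the table.

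From the mean and local background signals, intensities were corrected by normexp (offset 50) and normalised within arrays by loess, in limma 3.58.1 under R 4.3.3. Control spots (weight 0 in loess) and outlier flags were left out, and repeated spots were averaged. The filter asked for Cy5 well above background on 6 or more arrays of either diet, which left 26675 of 56605 probes. GLU+GAL minus GLU was fitted with lmFit and eBayes over all 24 arrays and adjusted over all genes by Benjamini-Hochberg. Correlations used 100000 resamples, two-sided. The number of arrays limits the precision. In simulated data, 74% of 50 genes changed by 0.3 on the log2 scale were recovered at an adjusted p under 0.05, for this comparison over 18649 genes. The changed genes were drawn at random from all genes, larger changes were planted in others, and the noise was independent between genes. Each gene kept its own within-diet SD, with a median of 0.17 over all genes and 0.29 over the members. That share therefore does not hold for the members.

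Alternatives were other background corrections, scalings, filters and probes, slide and replicate blocks, array weights, arrays left out, and single slides. Named are the 9 members, the 3 nearest genes of each by correlation, the other measured Cyp2c genes, and from each list up to 4 genes with the smallest p. The members and lists were chosen with earlier results of these data known.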

Additional observations from a re-analysis of the deposited data

How the results depend on the processing

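No gene passed adjustment under any setting except that leaving out 1 array at a time gave counts from 0 to 1, the call being Zfp787 without GLU mouse 3 (adjusted p = 0.0304, limma). The count of members lower at an unadjusted p under 0.05 was 3, where 2.66% of all genes were lower. It was 1 with median centring (1.42% of genes) and 1 in the authors' value table (1.67% of genes), Cyp2c40 in both. Within slides 1, 2 and 3 it was 0 (2.44% of genes), 0 (6.61%) and 2 (1.6%, Cyp2c29 and Cyp2c40). With 1 array left out it was from 2 to 3. Cyp2c29, Cyp2c38, Cyp2c40 and Cyp2c44 kept a negative difference in every setting. The difference of Cyp2c37 turned to 0.012 in the value table and 0.18 within slide 1, and ran from -0.15 to 0.00025 with 1 array left out, the highest without GLU+GAL mouse 3. That of Cyp2c50 turned to 0.012 in the value table, 0.17 within slide 1 and 0.22 with its other probe. That of Cyp2c54 turned to 0.020 with the processed signals, 0.042 with median centring, 0.0068 with Cy5 alone, 0.060 in the value table and 0.29 within slide 1, and ran from -0.11 to 0.077 with 1 array left out. That of Cyp2c55 was -0.078 within slide 2. The causes were not tested. Over all genes, the share of higher among calls at an unadjusted p under 0.05 was 38.2%, and it was 81.1% with the processed signals and 61% in the value table. Of 28 member pairs, 13 passed, and 3, 5 and 4 passed within slides 1, 2 and 3, each with 8 mice. Whether the labels' replicate numbers pair mice was not settled. Over all genes, 8 of 12 same-number pairs correlated above 0.1, with r from -0.38 to 0.521. For 2 GLU mice the GLU+GAL mouse of the same number correlated best, and pairs of unlike number were not summarised beside these. With replicate number as a block, the lowest adjusted p over all genes was 0.111, against 0.523 without it (limma). With the replicate block, 2 members were lower at an unadjusted p under 0.05, where 3.89% of all genes were lower. They were Cyp2c29 by -0.28 and Cyp2c40 by -0.33 (limma adjusted p = 0.330 for both), and Cyp2c38 had an unadjusted p of 0.0594. Without GLU+GAL mice 4 and 12, 3 members were lower at an unadjusted p under 0.05, where 3.16% of all genes were lower.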
